A study of Mus musculus with 18 samples.

Results

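The thrombospondin genes Thbs1, Thbs2, Thbs3 and Thbs4, fibronectin (Fn1), tenascin C (Tnc) and periostin (Postn) are 7 of the 26538 genes in a deposited RNA sequencing table of 18 mouse tumours. They were picked by symbol, with earlier results of these data known, and the contrast that led to the choice is not recorded. Their tests are therefore given as a description and are not independent evidence for any pattern. The tumours were untreated side tumours of animals in which another tumour had been ablated, in 6 groups of 3. The groups were cryoablation (freezing), radiofrequency ablation (heating by an alternating current) and cryo-thermal therapy (freezing joined with heating), each given alone or together with antibody to the T cell checkpoint receptor PD-1. All groups had an ablation, and animals without one are not analysed here. The labels give the tissue as tumour, and the tumour line, mouse strain, age and day of collection are not given in the sources used here. Because the line is not given, its own marker genes could not be checked. The labels do not state whether replicate tumours are from different mice, and the p-values reflect only how far these tumours spread.

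Thrombospondins are secreted glycoproteins that sit in the extracellular matrix and act on cells more than they build structure. Thbs1 and Thbs2 form trimers that bind CD36 and CD47 on cells and restrain blood vessel growth, and Thbs1 can release TGF-beta from its latent complex. Thbs3 and Thbs4 belong to the pentameric branch, which lacks the repeats that bind CD36. Fibronectin is assembled by cells into fibrils through integrins and is a scaffold for other matrix proteins. Tenascin C and periostin are made mostly by fibroblasts of wounds and tumour stroma, and periostin binds both fibronectin and tenascin C.

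Promoter windows of the genes that the results turn on are shown here, because Thbs4, Tnc and Thbs3 passed in the antibody comparison and Postn varied with Tnc. A RefSeq table of the GRCm38.p6 build held a window for 5 of the 7 genes (Thbs2, Thbs3, Thbs4, Tnc and Postn). The 250 bases before a listed transcription start are printed 5′ to 3′ on the strand of the gene. Capitals mark matches on either strand to a TATA box, spelled TATAAA. They also mark the letters of a GC box on either strand, which are GGGCGG. The remaining capitals mark a box named after its own letters, the CCAAT box, likewise searched on both strands. Thbs4 lies on the minus strand (chr13:92794819-92795068), Thbs3 on the plus strand (chr3:89214930-89215179), Tnc on the minus strand (chr4:64047016-64047265, the first of its listed starts) and Postn on the plus strand (chr3:54360857-54361106, the second of its listed starts).
Thbs4: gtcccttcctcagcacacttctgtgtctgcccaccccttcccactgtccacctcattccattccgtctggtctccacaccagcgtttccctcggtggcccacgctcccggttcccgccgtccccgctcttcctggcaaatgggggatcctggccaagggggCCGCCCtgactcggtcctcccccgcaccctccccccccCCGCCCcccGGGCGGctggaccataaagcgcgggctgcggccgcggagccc
Thbs3: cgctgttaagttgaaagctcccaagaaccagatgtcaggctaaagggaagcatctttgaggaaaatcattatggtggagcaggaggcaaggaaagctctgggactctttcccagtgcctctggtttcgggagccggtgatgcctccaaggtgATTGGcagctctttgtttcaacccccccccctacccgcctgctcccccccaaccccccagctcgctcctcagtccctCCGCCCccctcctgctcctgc
Tnc: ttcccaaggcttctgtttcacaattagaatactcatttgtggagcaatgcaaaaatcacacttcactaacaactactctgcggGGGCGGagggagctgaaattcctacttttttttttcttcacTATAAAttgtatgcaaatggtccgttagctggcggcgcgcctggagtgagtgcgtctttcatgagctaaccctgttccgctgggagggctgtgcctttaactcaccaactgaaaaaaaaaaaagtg
Postn: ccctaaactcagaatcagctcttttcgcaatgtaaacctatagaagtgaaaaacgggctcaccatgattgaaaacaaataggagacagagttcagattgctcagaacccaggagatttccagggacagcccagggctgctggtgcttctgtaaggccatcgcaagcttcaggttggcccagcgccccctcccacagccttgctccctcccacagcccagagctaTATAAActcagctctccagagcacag
The Thbs4 window held 3 GC boxes, beginning 89, 51 and 42 bases before the start, and had a GC content of 70.8%, against a median of 52.4% over 32851 windows. Thbs3 held a GC box 21 bases and a CCAAT box 98 bases before the start. Tnc held a TATA box 126 bases and a GC box 167 bases before the start printed, and Postn held a TATA box 26 bases before the start printed. Counted from the second listed start of Tnc, these boxes began 205 and 246 bases before it. The window of the first listed Postn start held 0 matches. None of the windows of these 5 genes held the AP-1 letters TGANTCA. Over all windows of this length, a TATA box was in 12.4%, a GC box in 32.7%, a CCAAT box in 33.8% and the AP-1 letters in 6.75%. No matches overlapped each other in the windows printed, and a match or its absence describes only the letters of a window.

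Levels are in FPKM, fragment numbers scaled to the length of the transcript and the size of the library, which allows genes to be compared per length. Fn1 was the most abundant of the 7, with 204 to 576.3 FPKM and rank 153 by mean level in the table. Postn ranked 612 with 32.13 to 173.6 FPKM, and Tnc ranked 2335 with 7.395 to 59.44 FPKM. Thbs1 ranked 3210, Thbs3 4532, Thbs4 4987 and Thbs2 5660. Thbs4 spanned the widest range, its highest tumour lying 12.2 times above its lowest, and Thbs3 the narrowest, at 2.35 times. All 7 genes passed the filter of a mean of at least 0.5 FPKM.

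**Figure D1:**
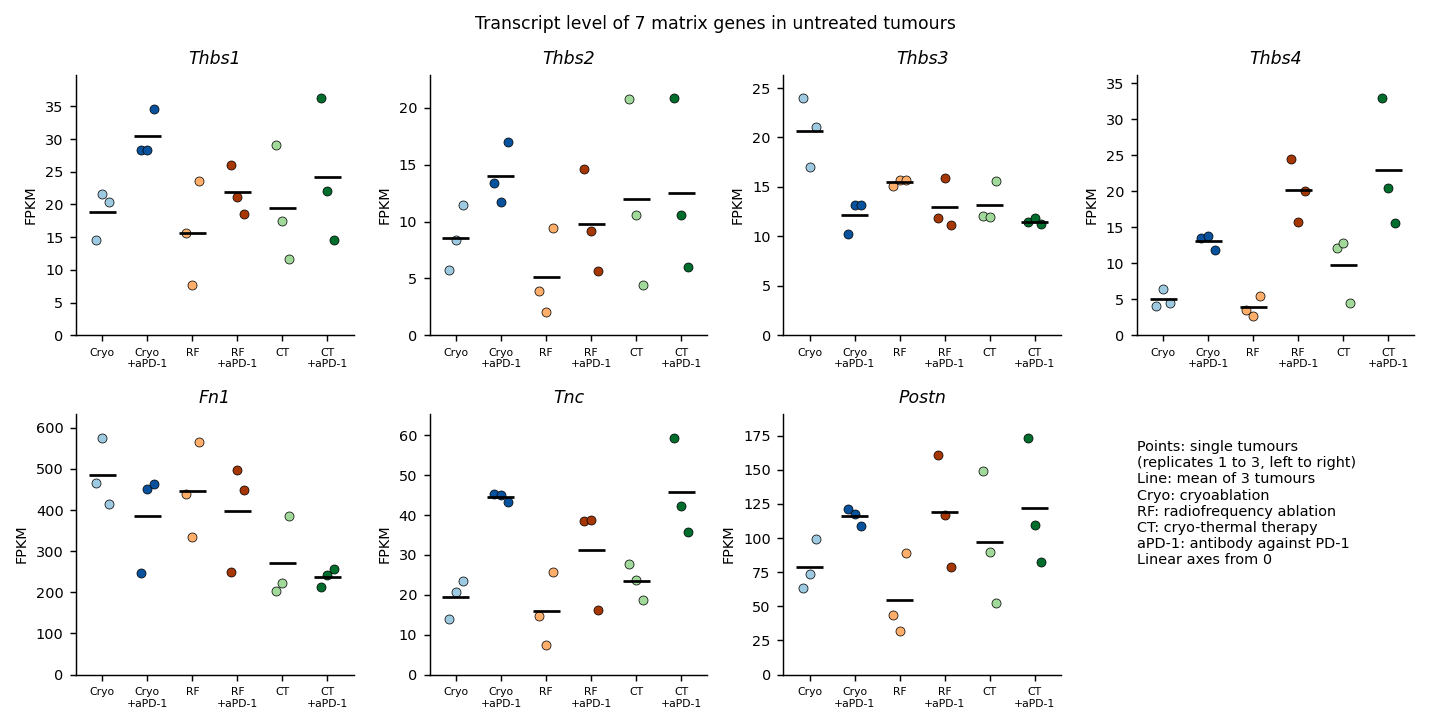
FPKM of each gene in each of 18 tumours on linear axes from 0, with points for single tumours and a line for the mean of 3. CT is cryo-thermal therapy, RF radiofrequency ablation and aPD-1 the antibody. Thbs4 lay higher in each antibody group than in the matching group without it, and Fn1 was lowest in the cryo-thermal groups.

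Relative depth, read from the step between low FPKM values, was 0.986 to 1.02 over the tumours, so differences in depth are small. Because these are bulk samples, fewer cells of a type and less RNA per cell cannot be told apart. Several cell marker lists varied between tumours. Replicates 1 and 2 of the cryoablation and antibody group, and replicate 1 of the cryo-thermal and antibody group, were rich in keratinocyte and hair follicle RNA, with mean levels of 3.16, 3.04 and 3.71 on the log2(FPKM + 1) scale, against 0.52 to 2.29 in the other 15. The mean fibroblast level lay between 4.45 and 5.47 in all tumours. Summed fibroblast markers, in which abundant genes weigh most, ran from 1730 to 2136 FPKM after cryoablation and from 1149 to 1430 with the antibody added, without overlap. The mean log2 level of the same markers overlapped in this pair, at 5.02 to 5.32 after cryoablation and 5.05 to 5.24 with the antibody. Of 12 fibroblast markers 1 was higher and 3 were lower in the mean antibody effect, beside 10.0% of all genes in either direction.

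Thbs4, a pentameric thrombospondin found in muscle, tendon and injured tissue, was higher with the antibody after every ablation. After cryoablation it measured 4.08, 6.39 and 4.53 FPKM without the antibody and 13.5, 13.7 and 11.8 FPKM with it. After radiofrequency ablation the values were 3.45, 2.71 and 5.42 without it and 24.5, 15.7 and 20.1 with it. After cryo-thermal therapy they were 12.1, 12.8 and 4.45 without it and 32.9, 20.4 and 15.5 with it. The tumours with and without the antibody did not overlap in any of the 3 pairs. Of the 7 genes only Thbs4 did this, as did 80 of the 12587 genes tested (0.636%) in the higher direction. Cryo-thermal replicates 1 and 2 were the high tumours among those without the antibody and lay inside the range of cryoablation plus the antibody.

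On the log2(FPKM + 1) scale, on which changes of low genes are understated, the mean antibody effect on Thbs4 over the 3 ablations was 1.53 ± 0.19 (SE), with an adjusted p of 0.00222 from limma with Benjamini-Hochberg adjustment over all genes tested. The geometric mean FPKM of the 9 antibody tumours was 3.27 times that of the other 9. Within single ablations, Thbs4 rose by 1.24 ± 0.33 after cryoablation (limma adjusted p = 0.0451) and by 2.13 ± 0.33 after radiofrequency ablation (limma adjusted p = 0.037). After cryo-thermal therapy the difference was 1.20 ± 0.33 and did not pass (limma adjusted p = 0.119). The antibody effects on Thbs4 were not shown to differ between ablations: the difference of effects was -0.04 ± 0.46 for cryo-thermal therapy minus cryoablation, -0.93 ± 0.46 for cryo-thermal therapy minus radiofrequency and 0.89 ± 0.46 for radiofrequency minus cryoablation, with limma adjusted p-values of 0.978, 0.719 and 0.687.

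The mean effect on Thbs4 passed in each of 18 fits that left out 1 tumour, with values of 1.38 to 1.60. The calls within single ablations were near the threshold. With the keratinocyte, muscle or erythroid level as a covariate Thbs4 did not pass after cryoablation (0.80, 0.90 and 1.36, limma adjusted p of 0.176, 0.29 and 0.405), nor without the 3 tumours rich in skin RNA (1.12, 0.412) or without the filter (0.105). With the erythroid level 0 of all genes passed when the antibody was added to cryoablation, against 543 in the main fit. After radiofrequency ablation Thbs4 did not pass with the muscle or erythroid level (1.53 and 2.19, limma adjusted p of 0.963 and 0.152), without the tumours rich in skin RNA (0.0661), with only the groups compared (0.124) or without the filter (0.0615). The call after cryoablation was lost without any 1 of that pair's 6 tumours (limma adjusted p of 0.0503 to 0.193) and without radiofrequency replicate 1 (0.0547), radiofrequency plus anti-PD-1 replicate 3 (0.0509) or cryo-thermal plus anti-PD-1 replicate 2 (0.0626). The Thbs4 call after radiofrequency ablation was lost without any 1 of its 6 tumours (0.0617 to 0.158), without any of cryoablation replicates 1 to 3 (0.0559 to 0.0589), and without cryoablation plus anti-PD-1 replicates 1 or 2 (0.0582 and 0.0577) or cryo-thermal plus anti-PD-1 replicate 2 (0.0706).

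Skeletal muscle markers were high in part of the same tumours. Their mean log2 level was 1.05 to 1.37 after cryoablation and 2.03 to 2.29 with the antibody added, 0.33 to 1.46 after radiofrequency ablation and 1.80 to 2.69 with it, and 1.06 to 2.44 after cryo-thermal therapy and 0.91 to 1.66 with it. Their summed FPKM ranged from 15.79 to 22.51, from 54.52 to 71.44, from 3.312 to 27.15, from 40.23 to 95.91, from 14.61 to 76.19 and from 14.14 to 41.14 in the same order of groups. Muscle markers were thus higher with the antibody after cryoablation and radiofrequency ablation. After cryo-thermal therapy the ranges overlapped, and replicate 2 without the antibody, at 2.44, was the highest tumour. The part of muscle tissue in the Thbs4 differences was not tested. Of 8 muscle markers past the filter, 5 were higher in the mean antibody effect and 0 lower, beside 10.0% of all genes. Within single ablations 0 of the 8 passed, beside 4.31% of all genes after cryoablation, 0.0477% after radiofrequency and 0.373% after cryo-thermal therapy. Of these markers Ckm and Tnnc2 were at 0 in 1 tumour and Pvalb in 2. With the muscle level as a covariate, the mean effect on Thbs4 was 1.25 ± 0.24 (SE) and no longer passed (limma adjusted p = 0.102). In that fit 0 of all genes passed in the mean effect, against 1262 in the main fit. The mean effect on Thbs4 was 1.23 (limma adjusted p = 0.0117) with the keratinocyte level, 1.57 (0.0372) with the erythroid level, and 1.39 (0.0278) without the 3 tumours rich in skin RNA.

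Smooth muscle and pericyte markers, and tendon and cartilage markers, also varied with Thbs4 and Tnc. Over the 18 tumours the Pearson r with Thbs4 was 0.69 for the smooth muscle and pericyte level, 0.67 for the tendon and cartilage level and 0.58 for the skeletal muscle level. With Tnc it was 0.78, 0.70 and 0.32. Other lists also varied with both genes. For Thbs4 and Tnc in turn, r was 0.63 and 0.4 with the T cell level and 0.53 and 0.7 with the keratinocyte level. It was 0.35 and 0.65 with the endothelial level and 0.43 and 0.58 with the adipocyte level. The mean log2 level of smooth muscle and pericyte markers was 2.18 to 2.55 after cryoablation and 2.66 to 2.87 with the antibody, 1.94 to 2.80 and 2.45 to 2.91 around radiofrequency ablation, and 2.33 to 3.25 and 2.36 to 3.12 around cryo-thermal therapy. For tendon and cartilage markers it was 1.06 to 1.17 and 1.15 to 1.34, 0.83 to 0.98 and 1.07 to 1.35, and 1.00 to 1.36 and 0.93 to 1.39 in these pairs. In the mean antibody effect 0 of 6 smooth muscle and pericyte markers passed, and 1 of 5 tendon and cartilage markers was higher, beside 10.0% of all genes. The part of these cells in the differences of Thbs4 and Tnc was not tested.

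Tnc, an adhesion-modulating matrix protein of wounds and tumour stroma, had the second largest mean antibody effect. It measured 13.9, 20.8 and 23.5 FPKM after cryoablation and 45.3, 45.0 and 43.3 with the antibody added. After cryo-thermal therapy it measured 27.8, 23.8 and 18.7 without and 59.4, 42.4 and 35.8 with the antibody. Neither pair overlapped. After radiofrequency ablation the values were 14.7, 7.40 and 25.7 without and 38.5, 38.7 and 16.3 with the antibody, and replicate 3 of each group made the pair overlap.

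The mean antibody effect on Tnc was 1.03 ± 0.21 (SE) on the log2 scale with a limma adjusted p of 0.0112, and the ratio of geometric mean FPKM was 2.11. No single ablation passed for Tnc: the differences were 1.19 ± 0.37 after cryoablation, 0.98 ± 0.37 after radiofrequency and 0.93 ± 0.37 after cryo-thermal therapy, with limma adjusted p-values of 0.0733, 0.322 and 0.298. After cryoablation Tnc did pass with array weights (0.0163, gene-by-gene 0.0214), with only the groups compared (0.0197), with the fibroblast level as a covariate (0.0225), and without radiofrequency replicate 2 (0.0472), radiofrequency replicate 3 (0.046) or radiofrequency plus anti-PD-1 replicate 3 (0.0476). The mean effect passed in all 18 fits that left out 1 tumour (0.89 to 1.17). It was smaller and did not pass with the keratinocyte level as a covariate (0.76 ± 0.22, limma adjusted p = 0.0737) or without the 3 tumours rich in skin RNA (0.95 ± 0.27, 0.0855). It was larger and did not pass with the muscle level (1.17 ± 0.29, limma adjusted p = 0.117) or the erythroid level (1.30 ± 0.23, 0.0533) as a covariate. With the muscle level 0 of all genes passed in the mean effect. The summed keratinocyte and hair follicle markers ran from 39.26 to 114.7 FPKM after cryoablation and from 114.5 to 226.9 with the antibody, from 45.23 to 160.4 and from 41.16 to 125 around radiofrequency ablation, and from 46.1 to 103.1 and from 61.04 to 438.5 around cryo-thermal therapy. Krt25, Krt27 and Krt73, which mark the hair follicle, were at 0 in 9 tumours each.

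Postn was high in every group and its antibody effect did not pass. It measured 63.7, 73.7 and 99.2 FPKM after cryoablation and 121.5, 117.3 and 108.9 with the antibody, which did not overlap. After radiofrequency ablation it measured 43.5, 32.1 and 88.8 without and 161, 117 and 78.7 with the antibody. After cryo-thermal therapy it measured 148.8, 89.6 and 52.1 without and 173.6, 109.9 and 82.7 with the antibody. Both of these pairs overlapped, through radiofrequency replicate 3 and cryo-thermal replicate 1, the high tumours of their groups. The mean effect on Postn was 0.71 ± 0.23 (limma adjusted p = 0.0597), and it passed without radiofrequency replicate 3 (0.85, 0.0305), radiofrequency plus anti-PD-1 replicate 3 (0.80, 0.044) or cryo-thermal replicate 1 (0.84, 0.0224). It also passed with array weights (limma adjusted p = 0.00754, gene-by-gene 0.0178) and with the fibroblast level as a covariate (0.77, 0.011).

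Thbs1 and Thbs2, the trimeric and anti-angiogenic members, showed wide spread within groups and no antibody effect that passed. Thbs1 measured 14.6, 21.6 and 20.3 FPKM after cryoablation and 28.4, 28.3 and 34.7 with the antibody, with no overlap. After radiofrequency ablation Thbs1 measured 15.6, 7.69 and 23.6 without and 26.1, 21.1 and 18.6 with the antibody. After cryo-thermal therapy it measured 29.1, 17.4 and 11.7 without and 36.3, 22.0 and 14.5 with the antibody. The groups of both later pairs overlapped.

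Thbs2 measured 5.77, 8.37 and 11.5 FPKM after cryoablation and 13.4, 11.7 and 17.0 with the antibody, again without overlap. After radiofrequency ablation Thbs2 measured 3.93, 2.04 and 9.44 without and 14.6, 9.20 and 5.65 with the antibody. The cryo-thermal groups were alike in Thbs2, with 20.8, 10.6 and 4.42 without and 20.9, 10.6 and 5.98 with the antibody, so that the highest tumour was 4.71 and 3.49 times the lowest inside each group. The mean antibody effects were 0.52 ± 0.21 for Thbs1 and 0.58 ± 0.30 for Thbs2, with limma adjusted p-values of 0.123 and 0.226. The mean effect on Thbs1 did pass with array weights (limma adjusted p = 0.0191, gene-by-gene 0.0472) and with the fibroblast level as a covariate (0.57, 0.0354).

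Thbs3, the other pentameric thrombospondin among the genes picked, was lower with the antibody, opposite to Thbs4. After cryoablation it measured 24.0, 17.0 and 21.1 FPKM, and 10.2, 13.2 and 13.2 with the antibody, a pair without overlap. After radiofrequency ablation it measured 15.1, 15.7 and 15.7 without and 11.9, 15.9 and 11.1 with the antibody, where replicate 2 of the antibody group was the high tumour and made the pair overlap. After cryo-thermal therapy it measured 12.1, 11.9 and 15.6 without and 11.4, 11.9 and 11.2 with the antibody. That last pair did not overlap, but its closest tumours stood at 11.93 and 11.86 FPKM.

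The mean antibody effect on Thbs3 was -0.38 ± 0.08 (SE) with a limma adjusted p of 0.0122, and the antibody tumours had 0.754 times the geometric mean FPKM of the others. Thbs3 fell by 0.71 ± 0.14 when the antibody was added to cryoablation (limma adjusted p = 0.0198). The differences after radiofrequency (-0.25 ± 0.14) and cryo-thermal therapy (-0.18 ± 0.14) did not pass, with limma adjusted p-values of 0.495 and 0.618. The difference of effects between cryo-thermal therapy and cryoablation was 0.54 ± 0.20 and did not pass either (limma adjusted p = 0.244). The call after cryoablation was lost without cryoablation replicate 1 (limma adjusted p = 0.125), cryoablation replicate 3 (0.0694) or cryoablation plus anti-PD-1 replicate 1 (0.0985). It was also lost with the keratinocyte (-0.66, 0.0723), muscle (-0.57, 0.166) or erythroid level (-0.60, 0.391) as a covariate and without the 3 tumours rich in skin RNA (-0.60, 0.354). With the erythroid level 0 of all genes passed in that comparison.

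Erythroid markers followed Thbs3 after cryoablation and not throughout. Their mean log2 level was 4.51 to 5.04 after cryoablation alone, where Thbs3 was highest, and 2.01 to 2.67 with the antibody. It was 1.79 to 5.09 after radiofrequency ablation, 1.92 to 2.62 with the antibody, 1.53 to 3.44 after cryo-thermal therapy and 2.54 to 3.91 with the antibody. Thbs3 was 15.05 to 15.71 FPKM in the radiofrequency tumours, whose erythroid level ran from 1.79 to 5.09. The part of erythroid cells in the Thbs3 differences was not tested. The mean antibody effect on Thbs3 was -0.34 (limma adjusted p = 0.127) with the erythroid level as a covariate, -0.35 (0.0644) with the keratinocyte level, -0.27 (0.263) with the muscle level and -0.34 (0.0839) without the 3 tumours rich in skin RNA. With the muscle level 0 of all genes passed in the mean effect. In GENCODE vM21, 6.59% of the exon bases of Thbs3 are shared with Mtx1, a mitochondrial import gene on the opposite strand. The strand setting of the counting is not given in the sources used here, so reads there cannot be told apart. Mtx1 lay between 26.76 and 38.69 FPKM and its mean antibody effect was 0.07 ± 0.05 (limma adjusted p = 0.372).

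Fn1, the fibronectin scaffold gene, showed no antibody effect that passed, with a mean of -0.23 ± 0.17 (limma adjusted p = 0.408). It measured 465.9, 576.3 and 414.6 FPKM after cryoablation and 245.8, 450.1 and 464.2 with the antibody. After radiofrequency ablation it measured 438, 333.6 and 564.8 without and 248.5, 497.6 and 448.4 with the antibody. After cryo-thermal therapy it measured 204, 222.6 and 384.7 without and 212.4, 240.9 and 257.8 with the antibody. All 3 pairs overlapped, and replicate 1 was the low tumour in both antibody groups after single ablations.

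**Figure D2:**
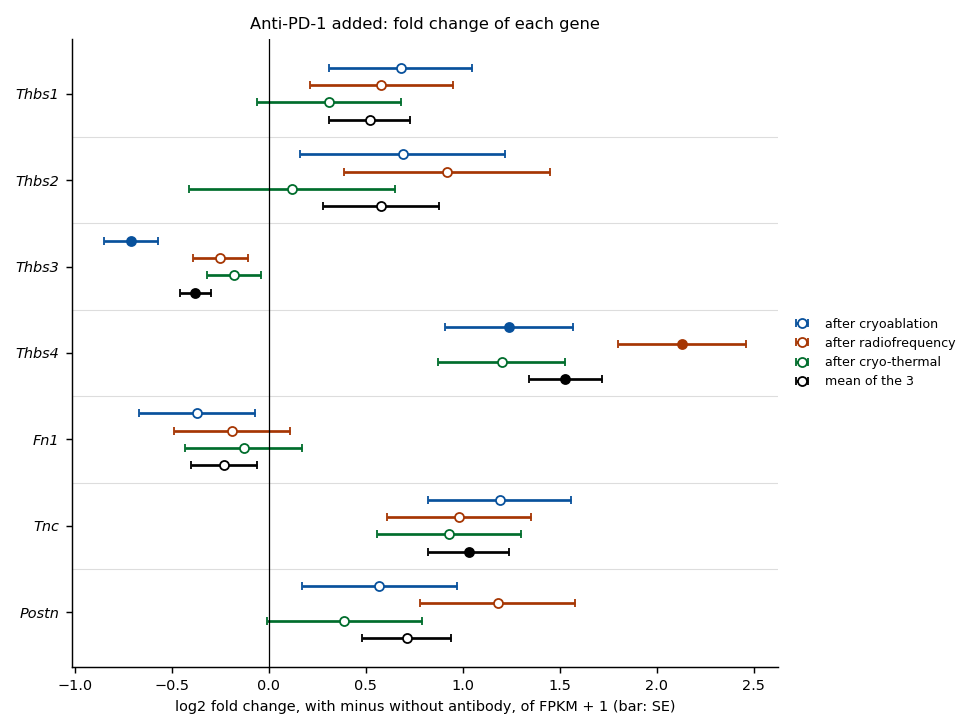
Fold change with minus without the antibody on the log2(FPKM + 1) scale for each gene, after each ablation and as the mean of the 3, with bars for the SE. Filled points have a limma adjusted p under 0.05 over all genes, open points do not. Thbs4, Tnc, Thbs1, Thbs2 and Postn lie to the right of 0 throughout, and Thbs3 and Fn1 to the left.

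In the mean antibody effect 3 of the 7 genes passed (Thbs4 and Tnc higher, Thbs3 lower), where 10.0% of the 12587 genes tested did. When the antibody was added to cryoablation 2 passed (Thbs4 higher, Thbs3 lower) beside 4.31% of all genes, and when it was added to radiofrequency ablation 1 passed (Thbs4) beside 0.0477%. When it was added to cryo-thermal therapy 0 of 7 passed in limma, beside 0.373% of all genes, and 2 had an unadjusted p under 0.05, beside 13.0%. No gene of the 7 passed in the differences of antibody effects. For cryo-thermal therapy minus cryoablation 0.167% of all genes passed, and 1 of the 7 had an unadjusted p under 0.05, beside 13.4% of all genes. The remaining differences called 0% of all genes in limma. At an unadjusted p under 0.05 they held 910 genes (7.23%, with 0 of the 7) for cryo-thermal therapy minus radiofrequency and 956 genes (7.60%, with 1 of the 7) for radiofrequency minus cryoablation. Tumours of the paired groups did not overlap for 6 of the 7 genes when the antibody was added to cryoablation (31.6% of all genes), for 1 after radiofrequency (14.8%) and for 3 after cryo-thermal therapy (19.8%). The median effect over the 7 genes was 0.68, 0.92 and 0.31 in these pairs and 0.58 in the mean effect, where the median of all genes was -0.001.

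In the comparisons of ablations without the antibody, Thbs3 and Fn1 were lower after cryo-thermal therapy than after cryoablation, and Thbs3 passed the test. Thbs3 averaged 20.7 ± 3.48 FPKM (SD, n = 3) after cryoablation, 15.5 ± 0.367 after radiofrequency and 13.2 ± 2.06 after cryo-thermal therapy. The cryo-thermal tumours reached at most 15.57 FPKM and the cryoablation tumours at least 17.04 FPKM. Thbs3 fell by 0.61 ± 0.14 on the log2 scale between cryoablation and cryo-thermal therapy (limma adjusted p = 0.012), and Mtx1 on its opposite strand differed by 0.07 ± 0.09 (limma adjusted p = 0.643). The call on Thbs3 was lost without cryoablation replicate 1 (0.0669), cryo-thermal replicate 1 (0.0632) or cryo-thermal replicate 2 (0.056), and with the erythroid level as a covariate (-0.49, 0.385). With the erythroid level 0 of all genes passed between cryo-thermal therapy and cryoablation. Between radiofrequency and cryoablation Thbs3 differed by -0.38 ± 0.14 without overlap and did not pass (limma adjusted p = 0.225).

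Fn1 averaged 485.6 ± 82.6 FPKM (SD, n = 3) after cryoablation, 445.5 ± 115.8 after radiofrequency and 270.4 ± 99.4 after cryo-thermal therapy. Every cryo-thermal tumour (at most 384.7 FPKM) lay below every cryoablation tumour (at least 414.6 FPKM), and cryo-thermal replicate 3 was the high one. Of all genes 35.5% did not overlap between these groups. The difference in Fn1 was -0.89 ± 0.30 and did not pass (limma adjusted p = 0.0597). It passed without cryo-thermal replicate 3 (-1.17, 0.0158), cryoablation plus anti-PD-1 replicate 1 (0.0388) or radiofrequency plus anti-PD-1 replicate 1 (0.0403). Against radiofrequency ablation the Fn1 difference was -0.74 ± 0.30 (limma adjusted p = 0.317).

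T cell markers moved opposite to Fn1 and Thbs3. Their mean log2 level was 0.38 to 0.55 after cryoablation and 0.81 to 1.97 with the antibody, 0.73 to 1.34 after radiofrequency and 1.06 to 1.59 with the antibody, and 1.35 to 2.52 after cryo-thermal therapy and 2.41 to 2.58 with the antibody. Across the 18 tumours, which share their libraries with these markers, the Pearson r of the T cell level was -0.87 with Fn1 and -0.79 with Thbs3. Other lists also varied with these genes. For Fn1 and Thbs3 in turn, r was -0.64 and -0.3 with the macrophage and monocyte level and 0.22 and 0.5 with the neutrophil level. It was 0.47 and 0.61 with the platelet level and 0.48 and 0.66 with the erythroid level. These r include the differences between groups. Liver secreted proteins had mean log2 levels of 0.87 to 1.74 after cryoablation and 0.20 to 1.56 with the antibody, against at most 0.32 in the radiofrequency and cryo-thermal groups. The part of these cells in the differences of Fn1 and Thbs3 was not tested.

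Thbs4 without the antibody averaged 5.00 ± 1.22 FPKM (SD, n = 3) after cryoablation, 3.86 ± 1.40 after radiofrequency and 9.80 ± 4.65 after cryo-thermal therapy, where replicates 1 and 2 were high and replicate 3, at 4.45 FPKM, lay among the cryoablation tumours. Its cryo-thermal difference was 0.75 ± 0.33 against cryoablation and 1.07 ± 0.33 against radiofrequency, and neither passed (limma adjusted p of 0.131 and 0.262). Without cryo-thermal replicate 3 both Thbs4 differences passed, at 1.19 (limma adjusted p = 0.00914) and 1.51 (0.0235). In the order of group means, Thbs4 went from radiofrequency, cryoablation and cryo-thermal therapy to cryoablation plus anti-PD-1 (13.0 ± 1.03), radiofrequency plus anti-PD-1 (20.1 ± 4.41) and cryo-thermal therapy plus anti-PD-1 (22.95 ± 8.97). Neighbours in that order overlapped except cryoablation plus anti-PD-1 and radiofrequency plus anti-PD-1.

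**Figure D3:**
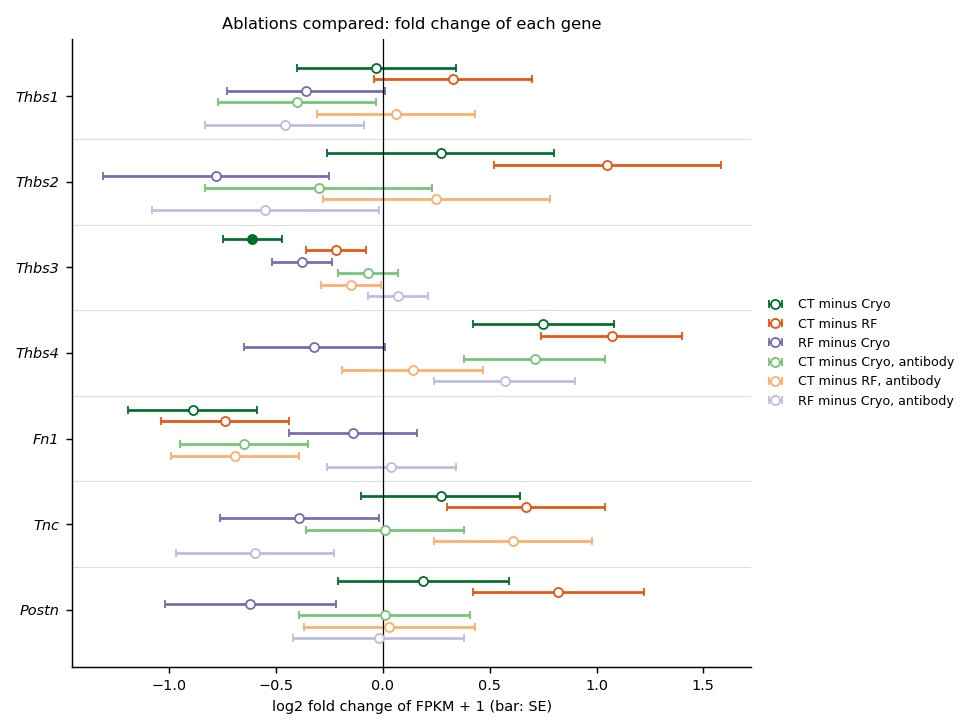
Fold change between ablations on the log2(FPKM + 1) scale for each gene, without and with the antibody, with bars for the SE. CT is cryo-thermal therapy, Cryo cryoablation and RF radiofrequency ablation, and the only filled point, Thbs3 in cryo-thermal therapy minus cryoablation, has a limma adjusted p under 0.05.

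Of the 7 genes 1 passed between cryo-thermal therapy and cryoablation (Thbs3, lower), where 15.0% of all genes did, a share near that of the 7. Between cryo-thermal therapy and radiofrequency 0 of 7 passed in limma, beside 0.00794% of all genes, and 2 (Thbs4 and Fn1) had an unadjusted p under 0.05, beside 13.6%. Between radiofrequency and cryoablation 0 of 7 passed in limma, also beside 0.00794%, and 1 (Thbs3) had an unadjusted p under 0.05, beside 15.1%. With the antibody, 0 of 7 passed in limma in each comparison of ablations. For cryo-thermal therapy against cryoablation 4.06% of all genes passed, and Thbs4 and Fn1 had an unadjusted p under 0.05, beside 20.7%. Against radiofrequency 1.31% passed, and Fn1 alone of the 7 had an unadjusted p under 0.05, beside 17.2%. The share was 0% for radiofrequency against cryoablation, where 736 of all genes (5.85%) and 0 of the 7 had an unadjusted p under 0.05. In the test of any difference among the 6 groups, 3 of the 7 passed beside 18.0% of all genes: Thbs4 (limma adjusted p = 0.00475), Thbs3 (0.0121) and Tnc (0.0261). Tumours did not overlap for 2 of the 7 (Thbs3 and Fn1) between cryo-thermal therapy and cryoablation (35.5% of all genes). It was 1 (Thbs3) between radiofrequency and cryoablation (22.8%) and 0 between cryo-thermal therapy and radiofrequency (15.7%). With the antibody it was 1 (Thbs4) for cryo-thermal therapy against cryoablation (25.9%) and 0 against radiofrequency (22.9%). Radiofrequency against cryoablation with the antibody had 3 (Thbs1, Thbs4 and Tnc, beside 9.4%).

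In the antibody groups Fn1 remained lowest after cryo-thermal therapy in its mean, with 237.1 ± 23.0 FPKM (SD, n = 3) against 386.7 ± 122.2 after cryoablation and 398.2 ± 131.9 after radiofrequency. The Fn1 differences were -0.65 ± 0.30 and -0.69 ± 0.30 on the log2 scale and did not pass (limma adjusted p of 0.236 and 0.258). In both other groups replicate 1, at 245.8 and 248.5 FPKM, lay inside the cryo-thermal range. Thbs4 was higher after cryo-thermal therapy than after cryoablation by 0.71 ± 0.33 without overlap and did not pass (limma adjusted p = 0.233). Tnc was lower after radiofrequency than after cryoablation by value, at 31.1 ± 12.9 against 44.5 ± 1.09 FPKM (limma adjusted p = 0.862).

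The makeup of the thrombospondin transcripts differed with the antibody, as shares of the summed FPKM of Thbs1 to Thbs4. Thbs4 made up 9.43% ± 2.22 (SD, n = 3) of the sum after cryoablation and 18.9% ± 2.96 with the antibody, 9.58% ± 0.472 and 31.1% ± 5.45 around radiofrequency, and 17.7% ± 6.08 and 32.3% ± 0.707 around cryo-thermal therapy. Thbs3 went the other way, from 39.4% ± 9.06 to 17.5% ± 2.11, from 41.5% ± 13.5 to 20.4% ± 5.15, and from 27.4% ± 14.0 to 17.75% ± 6.25. The summed level was 53.1 ± 4.49 FPKM after cryoablation and 69.7 ± 6.07 with the antibody, 40.1 ± 13.2 and 64.8 ± 11.1 around radiofrequency, and 54.4 ± 19.1 and 71.2 ± 27.6 around cryo-thermal therapy. These shares follow from the levels above, were not tested, and add no independent evidence.

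**Figure D4:**
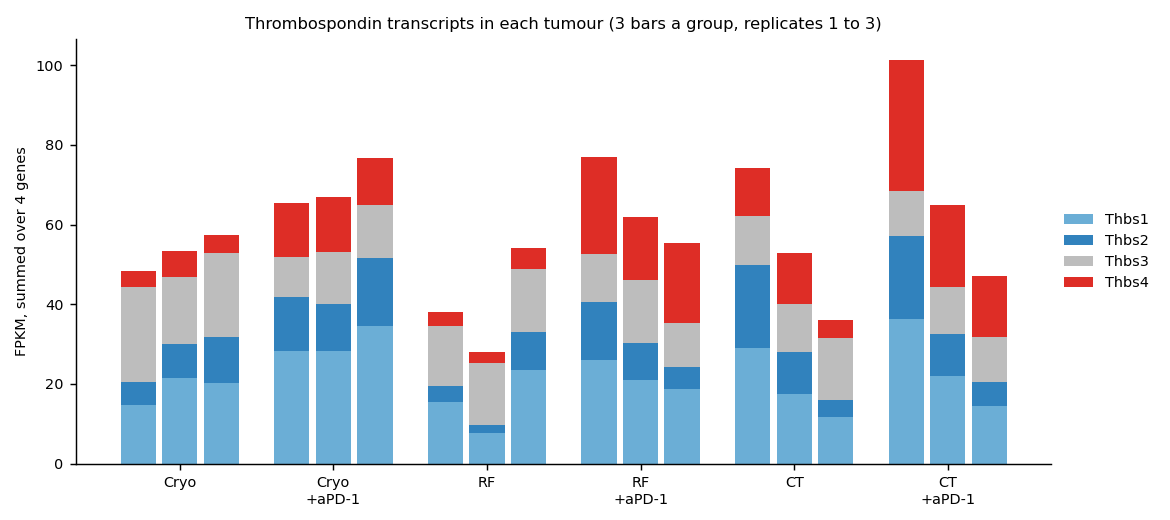
FPKM of the 4 thrombospondin genes stacked for each tumour, 3 bars a group on a linear axis from 0. The Thbs4 part is larger in the antibody groups, with means of 18.9% to 32.3% of the sum against 9.43% to 17.7% without the antibody.

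Within groups, Thbs1, Thbs2, Tnc and Postn were often highest in the same tumour. Across 18 tumours, on the log2(FPKM + 1) scale, Pearson r was 0.94 for Thbs2 with Postn, 0.93 for Thbs1 with Thbs2 and 0.88 for Tnc with Postn. Spearman rho was 0.92, 0.90 and 0.87 for these pairs. On deviations from the group means r was 0.97, 0.95 and 0.86, and without the 2 tumours farthest from the median it was 0.90, 0.88 and 0.78. In 5 of the 6 groups the same tumour was highest in both genes of each of these pairs. It was the same tumour in 4 groups for Thbs1 with Postn and for Thbs2 with Tnc, and in 3 for Thbs1 with Tnc. Thbs2 and Postn were also close to the mean smooth muscle and pericyte level, with r of 0.94 and 0.93. Their r was 0.92 and 0.88 with the tendon and cartilage level, 0.81 and 0.75 with the endothelial level, and 0.65 and 0.57 with the fibroblast level. These are descriptions over tumours that share library, depth and tissue makeup.

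Thbs3 and Thbs4 ran opposite to each other, with r of -0.74 (rho -0.68), and -0.57 on deviations from the group means. Thbs4 varied together with the 4 genes above, with r of 0.81 to Postn, 0.78 to Tnc and 0.65 to both Thbs1 and Thbs2. On deviations from the group means these were 0.78 for Postn, 0.56 for Tnc and 0.8 for both Thbs1 and Thbs2. Fn1 had r of -0.41 to Postn, -0.35 to Tnc and 0.64 to Thbs3.

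**Figure D5:**
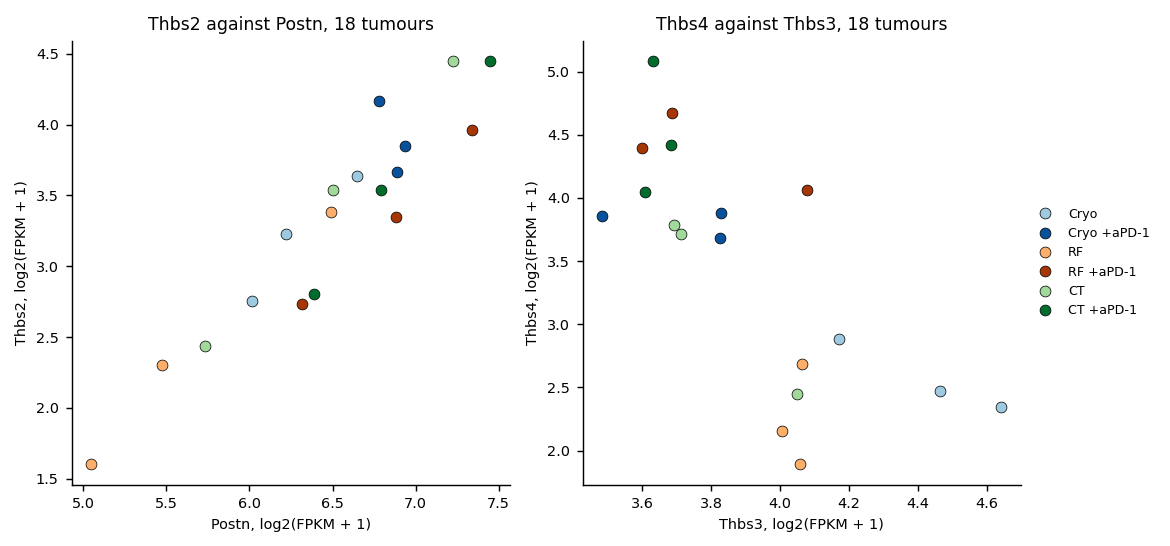
Each of 18 tumours by 2 genes on the log2(FPKM + 1) scale: Thbs2 against Postn (r of 0.94) on the left and Thbs4 against Thbs3 (r of -0.74) on the right. In the right panel the antibody tumours and cryo-thermal replicates 1 and 2 lie higher on the Thbs4 axis, at 11.8 FPKM or more, than the other tumours without the antibody, at 6.39 FPKM or less.

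For each of the 7, the 3 protein-coding genes of 11670 with the highest Pearson r over the 18 tumours were noted. For Thbs1 these were Col12a1 (0.93), a fibril-associated collagen, Srpx2 (0.92) and Pdgfd (0.92), a growth factor. For Thbs2 they were Gpx3 (0.96), a secreted peroxidase, Srpx2 (0.95) and Col12a1 (0.95), and for Postn Sulf1 (0.96), a heparan sulfate sulfatase, Gpx3 (0.94) and Srpx2 (0.94). Thbs1, Thbs2 and Postn thus shared Srpx2 among their nearest genes. For Tnc they included Spon1 (0.95), a matrix protein, and Pdzrn3 (0.92). For Thbs4 they were Cdipt (0.93), an enzyme of phosphatidylinositol synthesis, Cxcl14 (0.88), a chemokine, and Igfbp5 (0.87). For Thbs3 they were Eva1b (0.96), Dock11 (0.95) and Pdlim2 (0.95), and for Fn1 Gsk3b (0.97), a kinase, Spag9 (0.94) and Reep3 (0.93).

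Genes that act with the 7 moved in both directions. In the mean antibody effect, in which 10.0% of all genes passed, 1 of 19 receptors tested was higher and 3 were lower: Calr rose by 0.22 ± 0.05 (limma adjusted p = 0.0113), and Itga2b (-0.31), Itgb5 (-0.34) and Lrp1 (-0.29) fell. Calr is a chaperone that, at the surface, carries the thrombospondin signal with Lrp1, Itga2b is the platelet integrin chain and Itgb5 a vitronectin receptor chain. Of 18 other matricellular and related genes 0 were higher and 2 were lower, the proteoglycan Vcan (-0.26) and the collagen-binding Sparc (-0.20). Among 13 TGF-beta ligands, activators and receptors, Tgfb1 rose by 0.16 ± 0.05 (limma adjusted p = 0.0418) and the co-receptor Tgfbr3 fell by 0.59 ± 0.11 (limma adjusted p = 0.00811). Tgfbr3 averaged 22.7 ± 4.21 FPKM after cryoablation and 12.1 ± 2.53 with the antibody. Of 15 TGF-beta target genes 1 was higher, the protease inhibitor Timp1 (0.26), and 0 lower.

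Among 16 genes of fibronectin assembly and crosslinking, 2 were higher with the antibody, the collagen chaperone Serpinh1 (0.16) and the transglutaminase Tgm2 (0.30), and 1 was lower, the adhesion protein Tns1 (-0.34). The median effect was -0.03 for receptors, 0.04 for matricellular genes, -0.08 for TGF-beta ligands and receptors, 0.02 for TGF-beta targets and -0.02 for assembly genes, all within 0.1 of the all-gene median of -0.001. When the antibody was added to cryoablation, with 4.31% of all genes passing, Calr (0.49) and Serpinh1 (0.43) rose and Itga2b (-0.45), Vcan (-0.50), Tgfbr3 (-0.86) and Tns1 (-0.61) fell, while 0 of the 15 TGF-beta targets passed, with Ltbp2 at -0.48 (limma adjusted p = 0.0676) and Timp1 at 0.32 (limma adjusted p = 0.104).

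Between cryo-thermal therapy and cryoablation, where 15.0% of all genes passed, 3 of the 19 receptors were higher and 1 was lower: Calr (0.52), the syndecan Sdc3 (1.12) and Itga4 (0.45), a fibronectin receptor chain of leukocytes, rose, and Itgb1 (-0.27), the shared beta chain, fell. Sdc3 averaged 7.65 ± 1.28 FPKM (SD, n = 3) in the cryoablation group and 18.2 ± 5.50 in the cryo-thermal group. Among TGF-beta genes Acvrl1 (0.66) rose and Tgfbr3 (-0.82), Ltbp3 (-0.65) and Ltbp4 (-0.59) fell, Ltbp3 and Ltbp4 being binding proteins of latent TGF-beta. Of the TGF-beta targets Id1 (-0.67) fell. Of the matricellular genes 1 was higher, Tnxb (0.86), a tenascin, and 0 were lower. Of the assembly genes Serpinh1 (0.55) and Tgm2 (0.79) rose and 3 fell, among them the crosslinking enzyme Loxl2 (-0.85) and the protease Bmp1 (-0.52). Loxl2 averaged 40.2 ± 2.85 FPKM in the cryoablation group and 22.4 ± 6.47 in the cryo-thermal group. The median difference was 0.03, 0 and -0.12 for receptors, TGF-beta genes and targets and 0.16 and -0.05 for matricellular and assembly genes, beside -0.009 over all genes.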

How the data were processed

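Gene expression in 18 mouse tumours, 6 groups of 3, was read from 1 table of FPKM values that the authors deposited, tab-separated with NCBI symbols and 1 column per tumour. The submitters' processing notes name HTSeq 0.11.2, and per the labels' protocols RNA was extracted with TRIzol and sequenced from VAHTS Universal V6 libraries. The sources used here do not give the aligner, genome build, annotation or strand setting. No counts are in the table, so a planned count test was not used. Relative depth was estimated from 2411 genes with low values, of which 99.37% of 10083 values were whole multiples of a step within 0.05 fragments.

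FPKM plus a pseudocount of 1 was log2 transformed, and 12587 of 26538 genes with a mean of at least 0.5 FPKM were kept. limma 3.58.1 in R 4.3.3 fitted a mean per group to all 18 tumours, with variances moderated along a trend. Tests were 2-sided with Benjamini-Hochberg adjustment over all genes of a comparison and a threshold of 0.05. The 13 contrasts and 1 test of any group difference share tumours. An exact permutation of 6 tumours in a pair cannot give a p under 0.1. The fit was tested on simulated data. Figures and sequence steps used Python 3.11.15, pandas 2.3.3 and matplotlib 3.10.9.

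The 7 genes, 5 pathway lists and 13 cell marker lists (206 of 207 entries found, all but Trac) were chosen with earlier results of these data known. Named were the 7 genes, the 3 genes most like each, and from each pathway list up to 4 genes that passed with the smallest p, or 2 by value where none passed, except for items that are not reported here. Alternatives changed the pseudocount, filter, scaling, weights, block, groups fitted, covariates and tumours.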

Additional observations from a re-analysis of the deposited data

How the results depend on the processing

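The mean antibody effects on Thbs4, Tnc and Thbs3 kept their direction in all 14 alternatives and all 18 fits without 1 tumour. The Fn1 mean effect turned to 0.06 with the muscle level as a covariate. The antibody effect on Thbs1 after cryo-thermal therapy turned to -0.02 without the tumours rich in skin RNA and without cryo-thermal plus anti-PD-1 replicate 1, and ranged from there to 0.63 over the fits without 1 tumour. The difference of the Thbs4 effect between cryo-thermal therapy and cryoablation, near 0, turned to 0.04 with the keratinocyte, 0.42 with the muscle and 0.11 with the fibroblast level, and to 0.07, 0.01, 0.16, 0.20, 0.01 and 0.19 without cryoablation replicates 1 or 3, cryo-thermal replicates 1 or 2 or cryo-thermal plus anti-PD-1 replicates 2 or 3, within a range of -0.48 to 0.20 over those fits.

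The number of the 7 genes that passed moved as follows. In the mean antibody effect (3) it was 5 with either array weighting and with the fibroblast level, 1 with the keratinocyte or erythroid level or without the tumours rich in skin RNA, and 0 with the muscle level. Added to cryoablation (2) it was 3 with either array weighting, with only the groups compared and with the fibroblast level, 1 without a filter and with the replicate block, and 0 with the keratinocyte, muscle or erythroid level or without the skin-rich tumours. Added to radiofrequency (1) it was 0 without a filter, with the replicate block, with only the groups compared, with the muscle or erythroid level and without the skin-rich tumours. Added to cryo-thermal therapy (0) it was 2 with either array weighting. For cryo-thermal therapy against cryoablation (1) it was 3 with either array weighting, 2 with the replicate block or the keratinocyte level and 0 with the erythroid level. Array weights also gave 4 (gene-by-gene 1) for cryo-thermal therapy against radiofrequency, 1 for radiofrequency against cryoablation, and with the antibody 2 (gene-by-gene 1) for cryo-thermal therapy against cryoablation and 1 against radiofrequency. They gave 1 (gene-by-gene 1) and 1 for the differences of effects of cryo-thermal therapy minus cryoablation and minus radiofrequency, and 7 (gene-by-gene 5) for any difference. Without 1 tumour the numbers ran from 0 to 3 (cryo-thermal therapy against cryoablation), 0 to 1 (against radiofrequency), 0 to 3 and 0 to 1 (antibody added to cryoablation and radiofrequency), 3 to 4 (mean effect) and 1 to 4 (any difference), and were 0 in the other comparisons. The causes were not tested.

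limma's default array weighting stopped before its tolerance and gave cryo-thermal plus anti-PD-1 replicate 2 a weight of 39.7, against 0.411 to 4.46 for the others. The gene-by-gene weighting (7.21 for that tumour) was added after those calls had been seen, and the erythroid covariate was also chosen after seeing the data. Counts over all genes moved too: from 1262 to between 0 (muscle level) and 2626 (array weights) in the mean effect, from 1884 to between 0 (erythroid level) and 5461 (array weights) for cryo-thermal therapy against cryoablation, from 543 to between 0 and 1974 for the antibody added to cryoablation, and from 2262 to between 775 and 9044 for any difference. Replicate numbers did not pair the tumours: same-numbered tumours did not all correlate over 0.1 in any pair of groups, though with the antibody all 3 cryo-thermal tumours correlated best with their own number among the radiofrequency tumours. With the replicate block, Thbs4 did not pass after cryoablation (1.24, limma adjusted p = 0.0506) or radiofrequency (2.13, 0.0593), and Fn1 passed between cryo-thermal therapy and cryoablation (-0.89, 0.0338). The absolute depth is unknown, so no counting error is given.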
